A study of Homo sapiens with 15 samples.

Results

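Retinoid metabolism and signalling genes were followed across T47D breast cancer cells and a tamoxifen-resistant derivative. The set held 9 of the 60664 genes counted: ALDH1A1, ALDH1A3, DHRS3, CRABP2, CYP26A1, CYP26B1, RARA, RARB and RARG. They were chosen by name with earlier results of these libraries known, so their levels and differences are given as a description, without p-values. T47D is an established luminal breast cancer line that expresses the oestrogen receptor. RNA was sequenced from 15 libraries in 5 groups of 3: parental cells (PAR) on vehicle, and resistant cells (TR) on vehicle, 4-OHT, erdafitinib or the combination of both drugs. 4-OHT, or 4-hydroxytamoxifen, is the active metabolite of tamoxifen, and erdafitinib inhibits the kinases of the fibroblast growth factor receptors. Treatment lasted 120 h with 1 µM 4-OHT, 5 µM erdafitinib or 0.05% DMSO as vehicle, after 48 h without full serum in all groups. The labels also give 8 µg/ml insulin and 24 h of attachment for every group. PAR cells had been kept in 5% serum and TR cells in 2% charcoal-stripped serum with 1 µM 4-OHT, and charcoal treatment of serum removes small lipophilic molecules such as steroids. Resistance, earlier drug exposure and growth serum therefore cannot be told apart in the comparison of TR with PAR. The labels do not say whether the resistant line was 1 clone. Nor do they say how the 3 replicate cultures of a group were made, so the spread between libraries may be partly technical.

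Retinoic acid is made from retinol through retinaldehyde. Retinaldehyde dehydrogenases such as ALDH1A1 and ALDH1A3 catalyse the last, irreversible oxidation, DHRS3 returns retinaldehyde to retinol, CRABP2 carries retinoic acid to its nuclear receptors, and CYP26 enzymes degrade it. The receptors RARA, RARB and RARG bind DNA as partners of the retinoid X receptors, and genes such as RARB, CYP26A1 and DHRS3 are textbook targets of the pathway. In breast epithelium ALDH1A1 and ALDH1A3 are also known as markers of stem-like cells because they contribute to aldehyde dehydrogenase activity assays.

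Promoter windows of 300 bases (250 before and 50 from an annotated start) were read from RefSeq on GRCh38.p14. All 9 genes matched, with 17 windows. They were searched on both strands for 2 hexamers in the same direction with 5 bases between them, the classical arrangement bound by retinoic acid receptors. Each hexamer could be the common form AGGTCA or, as a variant, AGTTCA. The further variants GGGTCA and also GGTTCA were allowed at either place. Such a repeat was present in 31 of 35116 windows of the annotation (0.0883%) and in 2 of the 17 windows, 1 of RARB and 1 of CYP26A1. With 2 bases between the hexamers it was present in 14 of all windows (0.0399%) and in 0 of the 17. The matching stretches are shown because both genes had few or no counts in resistant cells, though CYP26A1 had 0 in PAR as well. Capitals mark the hexamers and the bases between them. The RARB stretch lay at chr3:25428190-25428246 on the plus strand with the repeat 53 to 37 bases before the start. The CYP26A1 stretch lay at chr10:93073783-93073839, and its repeat, 90 to 74 bases before the start, read on the opposite strand.
RARB: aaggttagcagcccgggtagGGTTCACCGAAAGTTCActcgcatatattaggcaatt
CYP26A1: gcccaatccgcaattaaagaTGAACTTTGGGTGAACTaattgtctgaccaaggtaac

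The single ALDH1A3 window held neither repeat. It is shown because ALDH1A3 had the largest difference between groups among the genes with counts in every library. The 250 bases before its start, chr15:100879581-100879830 on the plus strand, held 38 CG dinucleotides, marked in capitals, and the whole window had a GC content of 81.7%, the highest of the 17 windows. A match or its absence describes only these letters in these windows, and no binding was measured here.
ALDH1A3: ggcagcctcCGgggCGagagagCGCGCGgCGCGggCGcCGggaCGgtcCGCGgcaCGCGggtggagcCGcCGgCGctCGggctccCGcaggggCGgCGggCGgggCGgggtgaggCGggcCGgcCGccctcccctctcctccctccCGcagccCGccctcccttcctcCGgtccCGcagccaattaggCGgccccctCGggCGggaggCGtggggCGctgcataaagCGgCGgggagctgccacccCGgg

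Libraries held 6946684 to 28717380 counts (median 22304029), with PAR vehicle 2 and TR 4-OHT 2 the shallowest. Of the 10 luminal epithelial markers, all were detected, with a summed level of 2860 to 4730 CPM (counts scaled to library size). In TR vehicle against PAR, 2 of the 10 were called higher (GATA3 and CDH1) and 2 lower (ESR1 and FOXA1). Endothelial, immune and adipocyte marker lists each summed to at most 1.5 CPM in any library. Libraries of the same group varied along a main axis that held 49.51% of the within-group variance and followed transcript GC content, with a Spearman correlation of 0.722 across 16033 genes, which are not independent replicates. Over all libraries, 16210 genes had enough counts for testing, among them 7 of the 9 retinoid genes. CYP26A1 and CYP26B1 did not pass the count filter.

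ALDH1A3 was low in parental cells, high in resistant cells, and lower again wherever erdafitinib was present. The gene (ENSG00000184254, chr15:100877714-100916626, plus strand of GRCh38) measured 2.60, 2.06 and 3.93 CPM in the PAR vehicle libraries. In TR vehicle it stood at 31.96, 31.2 and 32.7 CPM, and in TR 4-OHT at 36.0, 34.7 and 31.7 CPM. The TR libraries without erdafitinib were close to each other and all stood far above the PAR libraries. In TR erdafitinib the levels were 11.9, 12.2 and 11.3 CPM, and in TR combination 10.9, 9.76 and 9.16 CPM. These 6 libraries lay between the PAR libraries and the other TR libraries and overlapped neither. Among all tested genes, 41% did not overlap between PAR and TR vehicle, 11.6% between TR vehicle and erdafitinib alone and 15.7% between 4-OHT and the combination. Between the 6 libraries with erdafitinib and all TR libraries without it, 3.38% did not overlap. The share for the erdafitinib libraries against PAR was not computed.

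The mean ALDH1A3 level rose from 2.86 ± 0.959 CPM (SD, n = 3) in PAR to 31.96 ± 0.745 CPM in TR vehicle, a fitted log2 fold change of 3.43 (SE 0.22). The ratio of the means to PAR was 11.2 in TR vehicle, 11.9 in TR 4-OHT, 4.11 in TR erdafitinib and 3.47 in TR combination, so levels with erdafitinib stayed above the parental level. Erdafitinib alone gave 11.8 ± 0.423 CPM, a fall of ALDH1A3 by 1.44 (SE 0.20) on the log2 scale from TR vehicle. The combination gave 9.93 ± 0.869 CPM against 34.1 ± 2.23 CPM on 4-OHT, a fall by 1.78 (SE 0.20). The last pair shares no library with TR vehicle, whereas the comparisons of TR vehicle with PAR and of erdafitinib with TR vehicle share the TR vehicle libraries. Whether such a difference reflects fewer cells with the RNA or less RNA per cell cannot be told apart in bulk samples. The call for erdafitinib alone was lost when TR vehicle 2, TR vehicle 3 or any erdafitinib library was left out, while the log2 fold change stayed between -1.521 and -1.41 in the 15 alternative settings.

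A fibroblast marker moved with ALDH1A3. COL3A1 was at 0 counts in PAR, at 1.88 ± 0.664 CPM in TR vehicle and 2.39 ± 0.564 CPM in TR 4-OHT, and at 0.659 ± 0.0558 and 0.493 ± 0.168 CPM in the erdafitinib and combination groups. The 7 fibroblast markers together summed to 11.9 to 28.2 CPM in PAR, 13.3 to 37.7 in TR vehicle, 19.6 to 34.8 in TR 4-OHT, 16.2 to 30.8 in TR erdafitinib and 14.6 to 30.9 in TR combination, nearly all from COL1A1. Among the defining markers of that cell type, COL1A2 was at 0 in all 15 libraries, PDGFRB and PDGFRA had 1 and 2 counts in all, and DCN and LUM were at 0 in PAR and averaged at most 0.334 CPM in any TR group. The adipocyte list of 3 markers summed to 0 to 0.587 CPM in PAR and 0.697 to 1.4 CPM in the TR groups, with ADIPOQ at 0 counts in PAR and 34 in TR vehicle, and FABP4 at 2 counts in all. The part of such cells in the retinoid results was not tested.

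**Figure D1:**
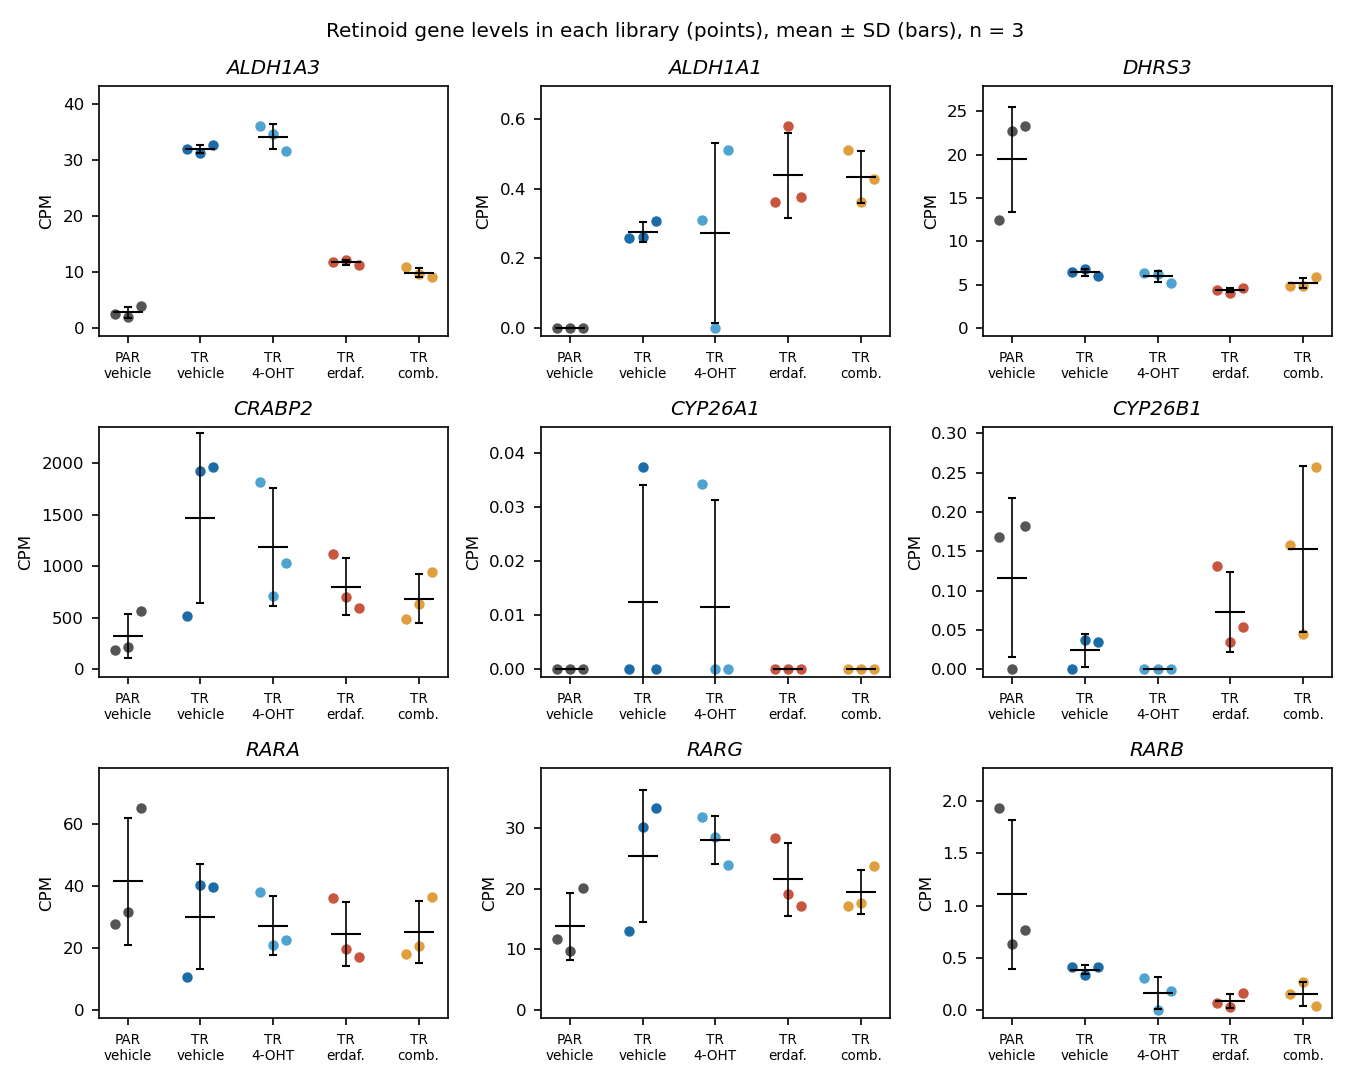
Levels of the 9 retinoid genes in CPM (vertical axes, each on its own linear scale from 0) in each of the 15 libraries (points), with the mean and SD of each group of 3 (bars). ALDH1A3 stood at 2.06 to 3.93 CPM in PAR, 31.2 to 36.0 CPM in resistant cells without erdafitinib and 9.16 to 12.2 CPM with it, while CRABP2, RARA and RARG varied widely within groups.

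ALDH1A1, the other retinaldehyde dehydrogenase of the set (ENSG00000165092, chr9:72900671-73080442, minus strand), was found only at trace level. No count was seen in the 3 PAR libraries, and the limit of 3 counts over that group equals 0.0656 CPM. TR vehicle held 5, 7 and 9 counts, or 0.276 ± 0.0277 CPM (SD, n = 3). TR vehicle thus stood at 4.24 times the PAR limit, with its own counts taken as free of error. The gene passed the count filter only through resistant libraries, so nothing is read from its call against a group without counts. TR 4-OHT libraries held 9, 0 and 11 counts, the 0 being in the shallow TR 4-OHT 2. The erdafitinib libraries held 11, 17 and 7 counts (0.438 ± 0.122 CPM) and the combination libraries 13, 8 and 10 (0.434 ± 0.0746 CPM). The 3 erdafitinib libraries were above the 3 TR vehicle libraries, where 11.6% of all tested genes did not overlap. The log2 fold change was 0.66 (SE 0.61) and was not called. Scaled by exon length, ALDH1A1 made up 1.593 ± 0.1275% of the sum of ALDH1A1 and ALDH1A3 in TR vehicle and 6.492 ± 1.507% in TR erdafitinib. In TR 4-OHT it made up 1.51 ± 1.472% and in TR combination 7.577 ± 0.9049%. ALDH1A3 made up the rest on this scale, at least 91.79% in any TR library. The share of ALDH1A1 also rises when ALDH1A3 falls. In TR erdafitinib ALDH1A3 stood at 0.3685 times its TR vehicle mean and ALDH1A1 at 1.59 times. The shares rest on few ALDH1A1 counts, so their SD over 3 libraries is only a rough guide to their uncertainty.

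DHRS3, which encodes the retinaldehyde reductase that opposes retinoic acid synthesis, ran in the other direction. The gene (ENSG00000162496, chr1:12567910-12618210, minus strand) stood at 12.5, 22.7 and 23.3 CPM in PAR. It stood at 6.44, 6.84 and 6.01 CPM in TR vehicle, with no overlap, as for 41% of all tested genes. The mean fell from 19.5 ± 6.06 to 6.43 ± 0.413 CPM (SD, n = 3), a fall by 1.60 (SE 0.25) on the log2 scale. On 4-OHT the level was 5.98 ± 0.638 CPM. Erdafitinib alone gave 4.12 to 4.61 CPM, all below the TR vehicle libraries, where 11.6% of all tested genes did not overlap. The log2 fold change was -0.55 (SE 0.24) and was not called. The combination gave 4.81 to 5.86 CPM against 5.25 to 6.39 CPM on 4-OHT, which overlapped, with a log2 fold change of -0.20 (SE 0.24). The 12 TR libraries stayed within 4.12 and 6.84 CPM under all 4 conditions.

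CRABP2 was by far the most abundant RNA of the set, and its level varied widely within groups. The gene (ENSG00000143320, chr1:156699606-156705816, minus strand) stood at 183, 220 and 569 CPM in PAR whereas TR vehicle held 515, 1928 and 1960 CPM. The highest PAR library lay above the lowest TR vehicle library. The means were 324 ± 213 and 1468 ± 825 CPM (SD, n = 3), and the gene was called higher with a log2 fold change of 2.18 (SE 0.55). Without PAR vehicle 3 the log2 fold change of CRABP2 was 2.89. TR 4-OHT stood at 713 to 1819 CPM, TR erdafitinib at 591 to 1119 CPM and TR combination at 484 to 946 CPM, all overlapping with their reference group. The log2 fold changes were -0.87 (SE 0.53) for erdafitinib alone and -0.79 (SE 0.53) for the combination against 4-OHT, and neither was called.

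The retinoic acid hydroxylases were close to absent. CYP26A1 (ENSG00000095596, chr10:93073475-93077885, plus strand) had 2 counts in all 15 libraries, 1 in TR vehicle and 1 in TR 4-OHT. CYP26B1 (ENSG00000003137, chr2:72129238-72147862, minus strand) had 26 counts in all. PAR held 7 of them, TR vehicle 2, TR 4-OHT 0, TR erdafitinib 6 and TR combination 11. TR vehicle stood at 0.173 times the PAR level of CYP26B1 (95% counting interval 0.0176 to 0.91), and erdafitinib at 2.88 times TR vehicle (0.515 to 29.2). The combination, with 4, 1 and 6 counts, stood at 3.07 times the limit of 3 counts over the 4-OHT group. The intervals cover counting error only. The limit takes the counts of the combination group as free of error. Neither takes account of the spread between libraries.

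Among the receptors, RARG was higher relative to RARA in resistant than in parental cells, though neither gene was called on its own. RARA (ENSG00000131759, chr17:40309180-40357643, plus strand) measured 27.8, 31.6 and 64.9 CPM in PAR against 10.6, 40.1 and 39.5 CPM in TR vehicle. RARG (ENSG00000172819, chr12:53210567-53232980, minus strand) measured 11.7, 9.68 and 20.1 CPM in PAR against 12.99, 30.1 and 33.2 CPM in TR vehicle. Libraries of the groups overlapped for each gene taken alone. The log2 fold changes were -0.47 (SE 0.48) for RARA and 0.87 (SE 0.34) for RARG, and neither was called. RARG was called under 6 of the 15 alternative settings, among them without PAR vehicle 3, with a log2 fold change of 1.28, and without TR vehicle 1, with 1.18.

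The ratio of RARG to RARA within a library, each scaled by exon length, separated the lines. It was 0.387, 0.284 and 0.286 in PAR, and 1.13, 0.693 and 0.778 in TR vehicle. Over all 12 TR libraries it ran from 0.6 to 1.26, so the lowest TR ratio was above the highest PAR ratio. Between PAR and TR vehicle, 41% of single tested genes did not overlap. The share was computed neither for ratios of other gene pairs nor for PAR against all 12 TR libraries, so the ratio is a description only. RARG made up 23.29 ± 2.557% (SD, n = 3) of the length-scaled sum of the 3 receptors in PAR. Its share was 45.33 ± 5.833% in TR vehicle, 49.42 ± 6.257% in TR 4-OHT, 45.61 ± 3.154% in TR erdafitinib and 42.5 ± 4.567% in TR combination. The 4 TR groups overlapped in this share. RARA held 73.66 ± 5.13% in PAR and 53.45 ± 6.743% in TR vehicle.

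**Figure D2:**
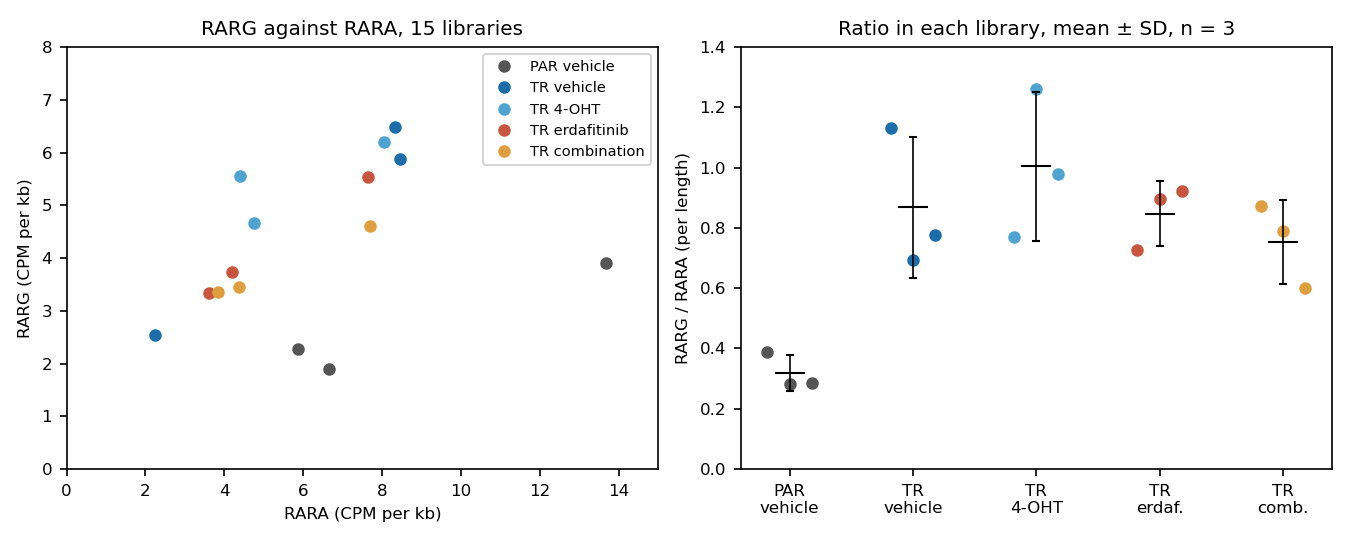
Left, RARG against RARA in CPM per kilobase of exon in each of the 15 libraries, coloured by group. Right, the RARG to RARA ratio in each library (points) with the mean and SD of each group of 3 (bars): PAR libraries lie at 0.284 to 0.387 and resistant libraries at 0.6 to 1.26.

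RARB, the receptor gene that is itself induced by retinoic acid, was the lowest of the receptors and had few counts. The gene (ENSG00000077092, chr3:25174332-25597932, plus strand) held 23, 4 and 21 counts in PAR, 8, 9 and 12 in TR vehicle, 9, 0 and 4 in TR 4-OHT, 2, 1 and 3 in TR erdafitinib and 4, 6 and 1 in TR combination. The levels were 1.11 ± 0.713 CPM in PAR and 0.386 ± 0.0432 CPM in TR vehicle (SD, n = 3), without overlap, as for 41% of all tested genes. The log2 fold change of RARB was -1.52 (SE 0.66) and was not called, and it was -0.88 without PAR vehicle 1, the library with most RARB. It was called in 2 alternatives, at -1.53 with the within-group axis in the fit and at -1.72 without the shallowest 2 libraries. RARB passed the count filter only through the PAR libraries, where it was highest, so nothing is read from these calls. With erdafitinib alone the level was 0.0868 ± 0.0661 CPM, again below every TR vehicle library (11.6% of all tested genes did not overlap). The log2 fold change was -2.20 (SE 0.80) and was not called. The 4-OHT libraries also lay below every TR vehicle library (3.65% of all tested genes did not overlap), at -0.93 (SE 0.73), not called. So did the combination libraries, at 0.0428 to 0.272 CPM, where the share over all genes was not computed. The combination and 4-OHT groups overlapped, at 0.158 ± 0.115 and 0.165 ± 0.156 CPM, with a log2 fold change of -0.34 (SE 0.80).

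Compared per length, in CPM per kilobase of exon, the levels of the genes in PAR ran from CRABP2 (300 ± 197) through RARA (8.74 ± 4.31), DHRS3 (5.54 ± 1.73), RARG (2.69 ± 1.08) and ALDH1A3 (0.537 ± 0.180) to RARB (0.300 ± 0.193) and CYP26B1 (0.0241 ± 0.0209). RARA and DHRS3, DHRS3 and RARG, and ALDH1A3 and RARB were neighbours whose libraries overlapped. In TR vehicle the order in CPM per kilobase was CRABP2 (1357 ± 763), RARA (6.34 ± 3.56), ALDH1A3 (5.99 ± 0.140), RARG (4.96 ± 2.12), DHRS3 (1.83 ± 0.118), RARB (0.104 ± 0.0117) and ALDH1A1 (0.0971 ± 0.00975). ALDH1A3 thus stood beside the receptors RARA and RARG in resistant cells, with overlapping libraries, and above DHRS3, and the libraries of RARB and ALDH1A1 overlapped. In TR erdafitinib ALDH1A3 stood at 2.21 ± 0.0792 CPM per kilobase, below RARG at 4.21 ± 1.17 and above DHRS3 at 1.25 ± 0.0720.

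Counted together, 3 of the 7 tested genes (ALDH1A1, ALDH1A3 and CRABP2) were called higher in TR vehicle than in PAR vehicle, where 19.9% of all tested genes were called higher. ALDH1A1, with no count in PAR, could only differ upwards. DHRS3 alone was called lower, where 16% of all genes were. TR cells had been kept on 4-OHT, so TR vehicle was a withdrawal of that drug. Against TR vehicle, 4-OHT changed 0 of the 7 by edgeR's quasi-likelihood test, 0 at an unadjusted p under 0.05 and 0 by DESeq2. Of all genes, 0% were called. Erdafitinib alone lowered ALDH1A3 (0.0494% of all genes were called lower), and the combination lowered ALDH1A3 against 4-OHT (0.345% of all genes). The combination against erdafitinib gave 0 of the 7 by edgeR, 0 at an unadjusted p under 0.05 and 0 by DESeq2, with 0% of all genes called. Since the genes were chosen with these contrasts known, nothing is read from their counts against these shares.

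Averaged over both backgrounds, with and without 4-OHT, erdafitinib again lowered 1 of the 7, ALDH1A3, by 1.61 (SE 0.14) on the log2 scale, where 0.938% of all genes were called lower. The same average was -0.83 (SE 0.37) for CRABP2, -1.27 (SE 0.57) for RARB, -0.38 (SE 0.17) for DHRS3, -0.38 (SE 0.24) for RARG and -0.21 (SE 0.34) for RARA. It was 0.56 (SE 0.44) for ALDH1A1, and none of these 6 was called. The difference between the erdafitinib effects with and without 4-OHT was tested as an interaction. For ALDH1A3 it was -0.34 (SE 0.27) on the log2 scale. The interaction was called for 0 of the 7 genes by edgeR, for 0 at an unadjusted p under 0.05 and for 0 by DESeq2, and for 0% of all genes.

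**Figure D3:**
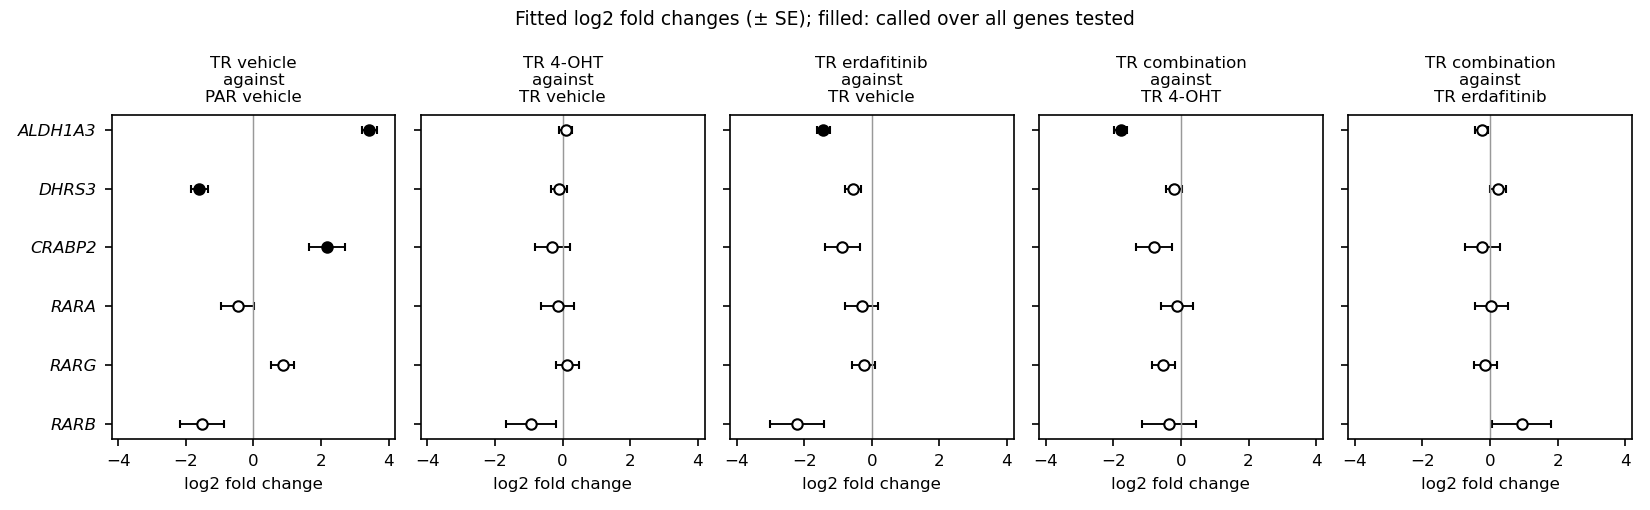
Fitted log2 fold changes (horizontal axes) with standard errors for 6 of the 7 tested retinoid genes in 5 comparisons. Filled points mark genes called over all genes tested. ALDH1A1 is left out because its fold change against a group without counts has no defined size. ALDH1A3 lies at 3.43 in TR against PAR and at -1.44 and -1.78 in the comparisons that add erdafitinib.

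CRABP2, RARA and RARG moved together from library to library within the groups. The Pearson correlation of their log2 deviations from the group mean over the 15 libraries was 0.977 for CRABP2 and RARA, 0.949 for RARA and RARG and 0.907 for CRABP2 and RARG. These 3 genes also followed the main within-group axis, with correlations of 0.927, 0.903 and 0.894, while ALDH1A3 (0.520), DHRS3 (0.143) and RARB (0.0644) did so less. Their transcripts had a GC content of 55.8% for CRABP2, 63.0% for RARA and 60.0% for RARG, against a median of 47.88% over genes. DHRS3, at 55.8%, did not share the pattern. The 15 points share library, depth and base composition, and the correlations are descriptions without a test. TR vehicle 1 was lowest on the axis and lowest in its group for CRABP2, RARA and RARG, and PAR vehicle 3 was highest on the axis and highest in PAR for these genes.

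With the axis score added to the fit, the standard error of the TR against PAR log2 fold change of CRABP2 went from 0.55 to 0.21, at a log2 fold change of 2.09. Under that setting CRABP2 was also called lower with the combination than with 4-OHT, at -0.74, and in the average erdafitinib effect, at -0.73. The axis was computed from deviations of the same libraries, so it removes spread by construction.

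**Figure D4:**
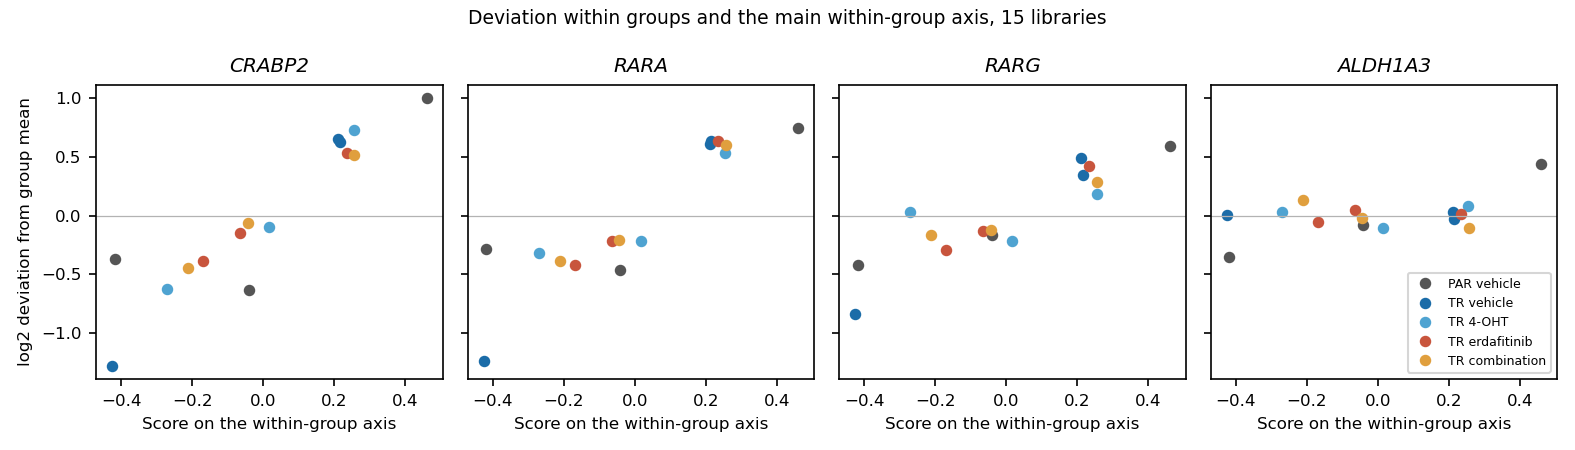
Log2 deviation from the group mean (vertical) against the score on the main within-group axis (horizontal) for CRABP2, RARA, RARG and ALDH1A3 in the 15 libraries, coloured by group. The first 3 genes rise with the score (Pearson 0.927, 0.903 and 0.894), and ALDH1A3 does so with a correlation of 0.520.

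The genes whose log2 CPM was most similar to that of ALDH1A3 over all 15 libraries, among the 10915 tested genes whose log2 CPM averaged 2 or more, were BACE2 (Pearson 0.986), AMOTL1 (0.975), ZNF321P (0.970), SAT1 (0.968) and CDKN2B (0.965). BACE2, a membrane protease gene, averaged 26.3 CPM in PAR, 95.5 in TR vehicle, 104.9 in TR 4-OHT, 65.0 in TR erdafitinib and 60.5 in TR combination. CDKN2B, an inhibitor gene of cyclin-dependent kinases, averaged 4.92, 56.6, 61.2, 29.3 and 30.8 CPM in the same order. Over the 12 TR libraries alone they were the chemokine gene CCL28 (0.992), MIR205HG (0.989), the netrin gene NTN4 (0.989), the metalloprotease inhibitor gene TIMP3 (0.988) and the fibronectin gene FN1 (0.982). TIMP3 averaged 245 CPM in TR vehicle, 254 in TR 4-OHT, 80.2 in TR erdafitinib and 80.4 in TR combination. No gene was among the top 5 in both sets.

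The rest of the retinoid pathway was read from 58 further genes in 4 lists, of which 38 were tested. In TR vehicle against PAR vehicle, 14 were called higher and 5 lower by edgeR's quasi-likelihood test (adjusted p under 0.05 over all genes), where 19.9% of all tested genes were called higher and 16% lower, with a median log2 fold change of 0.73 against 0.07 over all tested genes. The lists were chosen with earlier results of these libraries known, and neither the counts nor the median is a test of the list. The number called lower was near the share over all genes. LRAT, with 1 count in PAR, and AKR1C3, with 4, passed the count filter through the TR libraries. BCO2, RDH5, RDH12 and RDH16, which were low in PAR, also needed the TR libraries to pass. These genes entered through the group where they were high. Nothing is therefore read from their calls or from the number called higher.

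Carriers and storage enzymes had 2 of 5 tested genes called higher, against 19.9% of all tested genes. LRAT and BCO2 both passed the count filter through the TR libraries, so nothing is read from that number. LRAT, which esterifies retinol for storage, had 53 counts in TR vehicle and 1 in PAR, a ratio of 32.1 (95% counting interval 5.52 to 1293). BCO2, a carotenoid-cleaving enzyme gene, rose from 0.304 ± 0.288 to 0.966 ± 0.423 CPM (a log2 difference of 2.02, SE 0.57). The call for BCO2 was lost without PAR vehicle 1 (log2 fold change 1.83) or PAR vehicle 3 (1.44), and its log2 fold change was 2.83 without PAR vehicle 2.

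Of the oxidoreductases of retinol and retinaldehyde, 6 of 10 tested genes were called higher and 1 lower, against 19.9% and 16% of all tested genes. RDH5, RDH12, RDH16 and AKR1C3 passed the count filter through the TR libraries, so nothing is read from the number called higher. RDH11, a retinaldehyde reductase gene, rose from 85.0 ± 21.8 to 246 ± 24.0 CPM (a log2 difference of 1.54, SE 0.18, edgeR adjusted p = 1.71e-05). RDH16, a retinol dehydrogenase gene, rose from 0.511 ± 0.477 to 24.5 ± 13.5 CPM (5.25, SE 0.64), and the log2 difference was 6.07 without PAR vehicle 3. RDH5, a further retinol dehydrogenase gene, rose from 0.550 ± 0.211 to 3.50 ± 0.128 CPM (2.76, SE 0.35). AKR1C3, an aldo-keto reductase that acts on steroids and retinaldehyde, had 4 counts in PAR, all in PAR vehicle 1, and 97 in TR vehicle. Its sequence is close to that of other AKR1C genes, and reads shared with them were not assigned, so its level is uncertain. RDH12 and RDH13 were the other genes that rose, and SDR16C5, with 3.12 ± 0.658 CPM in PAR against 0.610 ± 0.195 CPM in TR vehicle, fell by 2.38 (SE 0.56, edgeR adjusted p = 0.00409). These 3 were named after their values were seen. The libraries of RDH12 overlapped, and its call was lost without PAR vehicle 1 (log2 fold change 3.28) or TR vehicle 2 (2.95), while its log2 fold change was 6.72 without PAR vehicle 3. The call for RDH13 was lost without PAR vehicle 2 (0.81), TR vehicle 2 (0.79) or TR vehicle 3 (0.78).

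Receptors and coregulators had 1 of 10 tested genes higher and 2 lower, counts near the 19.9% and 16% of all tested genes. PRAME, known as a repressor of retinoic acid receptor signalling, rose from 13.8 ± 4.47 to 74.9 ± 13.8 CPM (a log2 difference of 2.45, SE 0.23, edgeR adjusted p = 2.08e-06). The corepressor gene NRIP1 fell from 160.2 ± 45.4 to 50.8 ± 17.9 CPM, by 1.66 on the log2 scale (SE 0.26, edgeR adjusted p = 0.000213). The corepressor gene NCOR1 fell by 0.60 (SE 0.19, edgeR adjusted p = 0.0226) with overlapping libraries. The call for NCOR1 was lost without PAR vehicle 1 (-0.49), PAR vehicle 2 (-0.52), TR vehicle 2 (-0.47) or TR vehicle 3 (-0.56). The retinoid X receptor genes RXRA and RXRB, which encode the DNA-binding partners of the RARs, had log2 fold changes of -0.08 (SE 0.44) and 0.30 (SE 0.28) and were not called.

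Textbook targets of retinoic acid had 5 of 13 tested genes higher and 2 lower, against 19.9% and 16% of all tested genes, so the count lower was near the share over all genes. BTG2, an antiproliferative gene, rose from 4.13 ± 0.845 to 36.0 ± 2.07 CPM (a log2 difference of 3.10, SE 0.18, edgeR adjusted p = 1.61e-08). The transcription factor gene SOX9 rose from 31.6 ± 3.20 to 73.5 ± 6.33 CPM (1.21, SE 0.13, edgeR adjusted p = 7.04e-06), and the laminin gene LAMB1 from 63.6 ± 5.61 to 126 ± 14.1 CPM (0.99, SE 0.14, edgeR adjusted p = 6.56e-05). CLMN, the calmin gene, fell from 151.6 ± 29.5 to 33.3 ± 2.77 CPM, by 2.19 (SE 0.16, edgeR adjusted p = 1.53e-07). TGM2 and NR2F2 also rose and MEIS1 fell, named after their values were seen. NR2F2 and MEIS1 kept their calls in 15 of 15 alternatives and TGM2 in 9. The call for TGM2 was lost without PAR vehicle 1 (log2 fold change 1.79), PAR vehicle 2 (1.57), TR vehicle 2 (1.78) or TR vehicle 3 (1.86), and its log2 fold change was 3.01 without PAR vehicle 3.

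**Figure D5:**
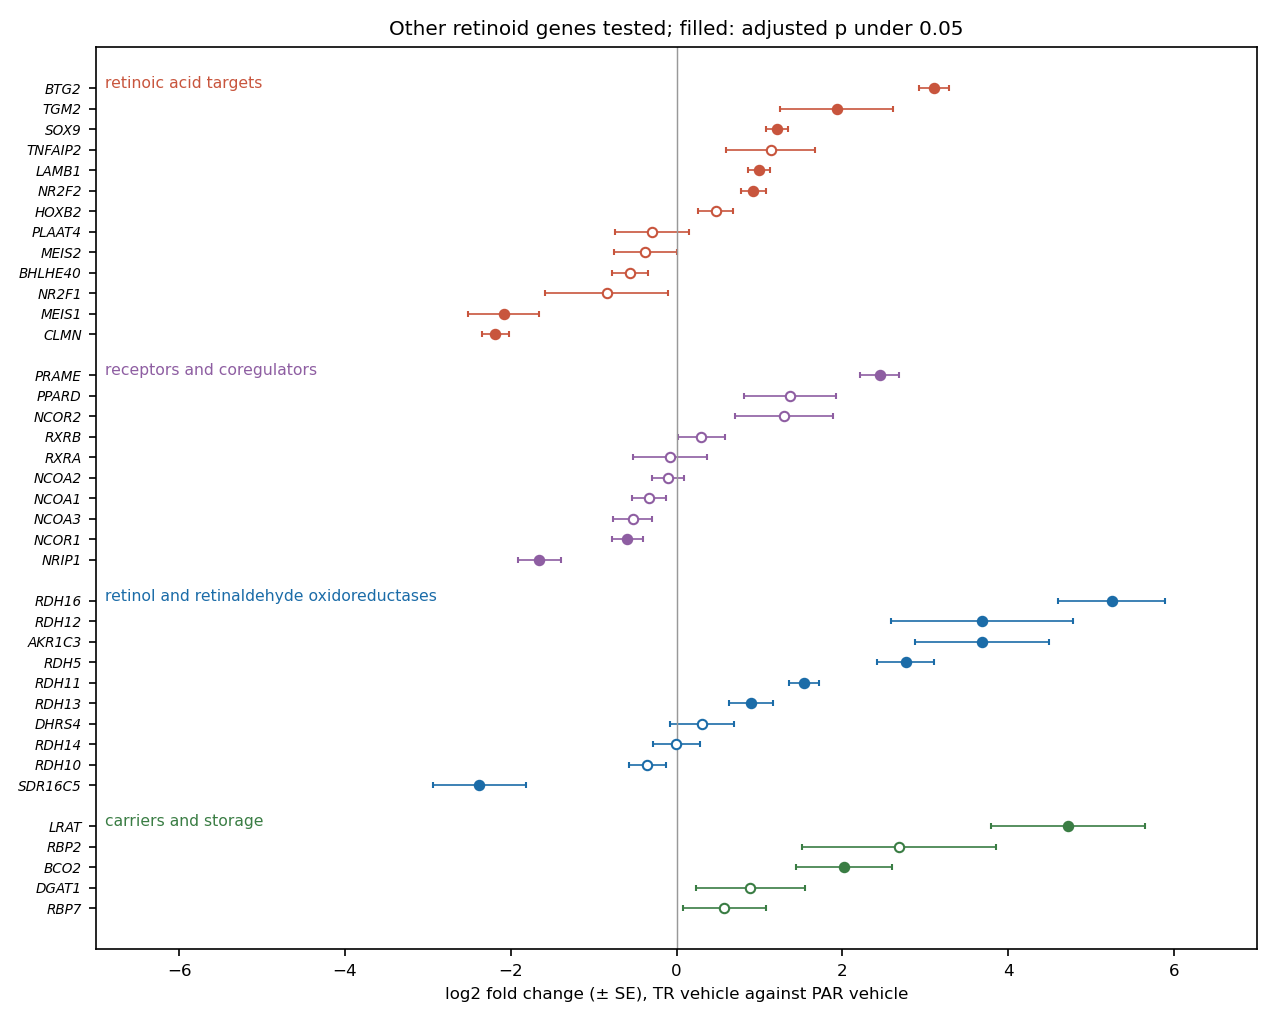
Log2 fold change with standard error (horizontal) of the 38 tested genes of the 4 further retinoid lists in TR vehicle against PAR vehicle, grouped and coloured by list, with filled points where the edgeR adjusted p was under 0.05. Filled points include 14 genes that were higher and 5 that were lower. LRAT, with 1 count in PAR, has a fitted value that depends on the settings of the fit.

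Drug treatment left most of this wider set without calls. Erdafitinib alone against TR vehicle gave 0 of 38 by edgeR, 1 at an unadjusted p under 0.05 and 1 by DESeq2. The combination against 4-OHT lowered 1 of 38, BTG2, where 0.345% of all genes were called lower. BTG2 stood at 36.0 ± 2.07 CPM in TR vehicle, 39.0 ± 4.14 in TR 4-OHT, 23.2 ± 1.85 in TR erdafitinib and 21.4 ± 1.35 in TR combination (SD, n = 3). Every library with erdafitinib was below every TR library without it, and 3.38% of all tested genes did not overlap in this split. Against 4-OHT the combination lowered BTG2 by 0.87 (SE 0.16) on the log2 scale, with an edgeR adjusted p = 0.0251. That call was lost when any of the 6 libraries of the comparison was left out, with log2 fold changes between -0.948 and -0.811 over the 15 alternatives. The average erdafitinib effect on BTG2 was a fall by 0.75 (SE 0.12, edgeR adjusted p = 0.00327), which was called in 21 of 21 alternatives. For 4-OHT against vehicle, the combination against erdafitinib and the interaction, 0 of 38 were called by edgeR, 0 at an unadjusted p under 0.05 and 0 by DESeq2.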

How the data were processed

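T47D RNA was sequenced in 15 libraries. Alignment used HISAT2 2.1.0 and build GRCh38 according to the submitters' processing notes. Each deposited file gives raw counts for Ensembl 104 genes, made by the authors with featureCounts 2.0.1 on read pairs in reverse-stranded mode, per the file headers. The notes name featureCounts 1.4.6-p1. Reads matching several places or genes were not counted. In edgeR 4.0.16 (R 4.3.3), filterByExpr kept 16210 genes and left out 44454, totals were scaled by TMM, and a single quasi-likelihood model of the 5 group means gave F tests. Their p-values were adjusted by Benjamini-Hochberg over all tested genes and called under 0.05. Standard errors are the absolute log2 fold change over the square root of F. A group at 0 was given 3 counts as its limit, with the counts of the other group taken as free of error. Intervals are exact at 95%. The scripts were tested on simulated data.

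The members and lists were chosen with earlier results of these data known. Named were all members, up to 4 called genes with the smallest p in each further list and comparison, and the 5 genes most correlated with ALDH1A3. Luminal, fibroblast, endothelial, immune and adipocyte markers were summed. Alternatives were RLE size factors, DESeq2 1.42.0, no filter or CPM of 1 or more in 3 libraries, fitting only the groups compared, the replicate number as a block, counts thinned to the lowest total, a covariate for the within-group axis, and fits without the shallowest 2 libraries or without each library in turn. The further lists were run under settings beyond the size factors, DESeq2 and no filter only after their results were seen. Libraries of a group differed by more than counting error (chi-square per gene 7.42 to 148), so none was a copy.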

Additional observations from a re-analysis of the deposited data

How the results depend on the processing

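No called direction reversed in any setting. The number of tested members called in TR against PAR was 4 and became 7 with the within-group axis as a covariate, and that covariate also gave 2 instead of 1 (ALDH1A3 and CRABP2) for the combination against 4-OHT and for the average erdafitinib effect. For erdafitinib alone the count of 1 became 0 when only the groups compared were fitted, and ranged from 0 to 1 when libraries were left out in turn. The cause was not tested, beyond fewer libraries leaving a larger uncertainty by construction. ALDH1A3 in TR against PAR (log2 fold change 3.272 to 3.781), in the combination against 4-OHT (-1.931 to -1.735) and in the average effect (-1.726 to -1.589), and DHRS3 in TR against PAR (-1.833 to -1.417), kept their calls in every alternative run. Over all genes, calls in TR against PAR went from 5817 to 3408 with only the groups compared and 8887 with the axis. For erdafitinib alone 15 became 87 by DESeq2, 26 without a filter, 9 with thinned counts, 0 with only the groups compared and 277 with the axis; for the combination against 4-OHT 104 became 288, 120, 87, 65 and 746 in the same order; for the average effect 278 became 580 by DESeq2 and 1715 with the axis. The combination against erdafitinib went from 0 to 16 by DESeq2, 9 without a filter and 17 with the axis. ALDH1A1 and RARB were removed by the CPM filter. Their few counts, like those of CYP26A1 and CYP26B1, limit what depth can show.

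Of 30 pairs of libraries with the same replicate number, 13 correlated above 0.1 in their within-group deviations (range -0.8275 to 0.7722). These deviations carry the main within-group axis, and pairs with unlike numbers were not compared. The values therefore cannot decide whether libraries of the same number shared a batch. With the replicate block, the members called were 4 in TR against PAR, 1 for erdafitinib, 1 for the combination against 4-OHT, 1 for the average effect and 0 in the other comparisons, as without it. Over all genes the block gave 5551, 9, 76 and 186 calls in these 4 comparisons, and BTG2 in the combination against 4-OHT was no longer called.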
